A study of Mus musculus with 24 samples.

Results

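Mouse chromosomes 7 and 13 hold dense clusters of C2H2 zinc finger genes. The genes described here are all protein-coding genes of the RefSeq annotation on these chromosomes whose symbol is Zfp followed by a number, a rule of name and position that uses no measured value. They number 130 of 21887 protein-coding genes, with 93 on chromosome 7 and 37 on chromosome 13. A further 267 genes named in the same way lie on other chromosomes.

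Most genes of this kind encode DNA-binding proteins with a tandem array of C2H2 fingers, often joined to a KRAB domain. KRAB recruits the corepressor TRIM28 (KAP1) and, through it, the histone H3 lysine 9 methyltransferase SETDB1, and many of these proteins silence retrotransposons. The genes arose by tandem duplication and therefore lie beside close relatives. The symbol does not guarantee this family: Zfp36 encodes tristetraprolin, a CCCH protein that binds and destabilises mRNA, and Zfp143 encodes a transcriptional activator without KRAB.

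The cells were N1E115, a mouse neuroblastoma line, described as positive for NOS1, the neuronal nitric oxide synthase. How the cells came to carry NOS1, and whether they are 1 clone, is not given in the sources used here. One group was kept for 3 days at 4% oxygen and its control for 3 days at 20% oxygen, and no other treatment separates them. Chromatin immunoprecipitation with sequencing (ChIP-seq) was carried out for 5 histone marks with 2 libraries per mark and oxygen level, so that 20 of the 24 samples are used here and the other 4 are inputs.

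H3K4me3 is found at promoters, H3K27ac at promoters and enhancers in use, and H3K4me1 chiefly at enhancers. H3K36me3 is laid down over the bodies of transcribed genes, and H3K27me3 marks chromatin repressed by Polycomb. The first 3 were deposited as narrow peaks and the last 2 as broad islands, called in each library on its own. H3K36me3 islands held 15581212 and 15349603 reads at 4% oxygen, against 25048785 and 13350093 at 20%. Peak numbers ranged from 26489 for H3K4me3 to 126503 for H3K4me1, and the depth of the peak libraries is unknown. Pairs of values below are in the order replicate 1, replicate 2. Separate cultures are not stated for the 2 libraries of a group, so p-values measure only the spread between these libraries, which may be technical. Per the file headers, replicate 2 libraries shared a flow cell. Among replicate 1 libraries, those at 20% oxygen and the 4% H3K4me1 library were on one flow cell and the other 4% libraries on another, so that for 4 marks oxygen and flow cell cannot be told apart within replicate 1. Hand2, Isl1, Th, Dbh, Chga and Stmn2, which mark noradrenergic neuroblastoma, carried both H3K4me3 at a gene end and H3K36me3 over at least 25% of the body in all 4 libraries. None of the 5 glial, 5 immune, 5 endothelial and 6 liver or muscle markers did.

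The zinc finger genes are compact and crowded. The gene body, from one end of the RefSeq record to the other, had a median length of 15.63 kb and ranged from 2.44 kb (Zfp36) to 456.02 kb (Zfp536), beside a median of 17.17 kb over all protein-coding genes. A cluster is defined here as at least 3 of these genes with gaps of at most 200 kb. On this definition 94 genes lay in 11 clusters, 71 of them in 10 clusters on chromosome 7 and 23 in a single cluster on chromosome 13. The chromosome 13 cluster runs from Zfp712 to Zfp273 (GRCm38.p6 chr13:67038594-67827000), and the next largest, with 15 genes, runs from Zfp84 to Zfp146 (chr7:29768552-30169775). Marks are measured below over a window of the body and 10 kb on either side. In 59 of the 130 genes this window held part of another gene of the set and in 86 part of another protein-coding gene of any kind, so that windows are not independent. Recent copies such as Zfp607a and Zfp607b, Zfp729a and Zfp729b, and Zfp874a and Zfp874b may share reads, and their values are uncertain.

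Promoter sequences were at hand for 133 start sites of 116 genes (RefSeq, GRCm38.p6), from 250 bases before to 50 bases after each start. Each was searched on both strands for ACTACAA, the opening letters of the motif known for human ZNF143, whose mouse counterpart ZFP143 is itself a product of the set. ACTACAA was found at 12 of the 133 start sites (9.02%), against 4.85% of the 268 start sites of Zfp genes on other chromosomes and 3.60% of 21263 over all protein-coding genes. These are counts of start sites and not of genes: Zfp169 was counted at both of its start sites, whose windows overlap. At 5 of the 12 the next 4 letters were TTCC, which continue the same known motif, and this longer word was singled out after its count was seen. ACTACAATTCC was found at 3.76% of the set's start sites, against 1.87% of those of Zfp genes on other chromosomes and 0.423% over all genes, where 90 start sites held it. The 100 bases before these 5 start sites are shown 5′ to 3′ on the gene's strand because the same letters recur at separate promoters, in the same orientation. Capitals mark the match, which reads GGAATTGTAGT, the reverse complement of the word.
Zfp58, chr13:67500523-67500622, minus strand: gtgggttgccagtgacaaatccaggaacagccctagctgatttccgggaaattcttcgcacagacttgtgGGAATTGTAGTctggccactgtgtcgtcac
Zfp128, chr7:12881078-12881177, plus strand: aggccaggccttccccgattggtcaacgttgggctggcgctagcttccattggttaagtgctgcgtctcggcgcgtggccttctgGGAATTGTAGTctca
Zfp180, chr7:24081797-24081896, plus strand: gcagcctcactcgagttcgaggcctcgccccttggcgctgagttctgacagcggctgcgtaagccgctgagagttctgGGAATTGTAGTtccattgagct
Zfp108, chr7:24254694-24254793, plus strand: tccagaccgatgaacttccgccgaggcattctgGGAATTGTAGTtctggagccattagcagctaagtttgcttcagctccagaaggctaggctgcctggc
Zfp93, chr7:24270318-24270417, plus strand: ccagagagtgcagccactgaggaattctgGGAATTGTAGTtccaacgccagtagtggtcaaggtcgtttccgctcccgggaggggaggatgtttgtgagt

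The match began 30 bases before the start in Zfp58, 15 in Zfp128, 22 in Zfp180, 67 in Zfp108 and 71 in Zfp93. Zfp180, Zfp108 and Zfp93 belong to the same cluster, which runs from Zfp180 to Zfp575 (chr7:24081877-24587840), so that these 3 promoters are not independent sequences. All 5 start sites carried H3K4me3 in all 4 libraries. GGGCGG, the GC box, was found at 36.1% of the set's start sites, against 46.2% over all genes. A match is a description of the letters and not a bound site.

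H3K4me3 was found at the promoters of most of these genes at either oxygen level. A peak lay within 1 kb of an end of the gene in all 4 libraries in 106 of 130 genes (81.5%), against 53.4% of all protein-coding genes. In 20 genes no library had such a peak. At the level of start sites, 118 of 133 (88.7%) were overlapped by a peak in all 4 libraries, against 51.7% over all genes. The share was 76.5% at start sites of Zfp genes on other chromosomes. The marked start sites of the set held a median of 14 CpG dinucleotides in the 300-base window, against a median of 22 over all marked start sites. The 12 start sites with no H3K4me3 in any library held a median of 6, and those without H3K4me3 over all genes a median of 4.

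The 250 bases before 4 start sites are shown with CpG in capitals, because they range from CpG-poor to CpG-rich and their marks do not simply follow that count. Zfp708, whose KRAB protein is known in the mouse to bind a class of retrotransposons, has 2 annotated start sites. Zfp131, a BTB zinc finger gene, had the highest H3K36me3 level of the set. Zfp954 carried H3K36me3 islands over its body at 20% oxygen and none there at 4%.
Zfp708, internal start, chr13:67081546-67081795, minus strand: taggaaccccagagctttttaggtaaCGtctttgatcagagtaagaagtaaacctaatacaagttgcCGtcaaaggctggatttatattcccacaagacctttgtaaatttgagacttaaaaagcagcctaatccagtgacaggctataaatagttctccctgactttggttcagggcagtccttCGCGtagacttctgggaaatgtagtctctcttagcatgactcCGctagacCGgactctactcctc
Zfp708, outer start, chr13:67097977-67098226, minus strand: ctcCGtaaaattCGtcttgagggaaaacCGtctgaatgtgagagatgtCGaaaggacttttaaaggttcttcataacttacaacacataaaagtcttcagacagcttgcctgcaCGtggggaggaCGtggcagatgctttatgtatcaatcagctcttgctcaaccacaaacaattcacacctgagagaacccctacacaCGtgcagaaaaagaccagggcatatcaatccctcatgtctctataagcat
Zfp131, chr13:119790459-119790708, minus strand: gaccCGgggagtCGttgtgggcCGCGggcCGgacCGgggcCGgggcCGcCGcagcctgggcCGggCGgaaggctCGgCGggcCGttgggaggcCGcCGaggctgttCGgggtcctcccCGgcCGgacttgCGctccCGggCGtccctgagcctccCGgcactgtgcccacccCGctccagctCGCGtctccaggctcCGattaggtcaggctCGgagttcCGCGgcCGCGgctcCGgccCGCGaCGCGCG
Zfp954, chr7:7121477-7121726, minus strand: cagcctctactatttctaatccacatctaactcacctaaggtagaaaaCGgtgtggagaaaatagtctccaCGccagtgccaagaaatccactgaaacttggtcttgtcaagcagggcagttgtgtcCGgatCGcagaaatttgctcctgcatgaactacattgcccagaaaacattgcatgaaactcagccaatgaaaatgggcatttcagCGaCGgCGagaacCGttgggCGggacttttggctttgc

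H3K4me3 and H3K27ac covered 100% of the 300-base window at the internal Zfp708 start in all 4 libraries of each mark, and 0% of the window at its outer start in all of them. The 2 stretches hold 6 and 7 CpG dinucleotides, a similar number, while that of Zfp131 holds 38 and was fully covered by both marks in all libraries. The Zfp954 stretch holds 9. Its start window was covered by H3K4me3 over 100% and 58.3% at 4% oxygen, against 100% and 51.7% at 20%, so the promoter carried this mark at both oxygen levels. H3K27ac covered 1.0% and 0% of that window at 4% oxygen, against 0% and 0% at 20%.

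H3K36me3 covered the bodies of most of these genes. The median gene of the set had 62.5% and 61.0% of its body under islands at 4% oxygen, against 68.4% and 71.2% at 20%. Over all protein-coding genes the median was 0% in both 4% libraries, against 0% and 4.41% at 20%. Zfp genes on other chromosomes had medians of 68.1% and 72.4% at 4% oxygen, against 72.8% and 75.5% at 20%. High cover was thus not particular to the set. Mean cover over the 4 libraries reached at least 25% in 99 of 130 genes (76.2%), against 44.2% of all genes. At 90% cover or more the shares were alike, with 23 genes (17.7%) against 17.8% of all genes. Fewer genes of the set than of all genes lacked the mark: 17 (13.1%) had no island over the body in any library, against 46.3%.

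**Figure D1:**
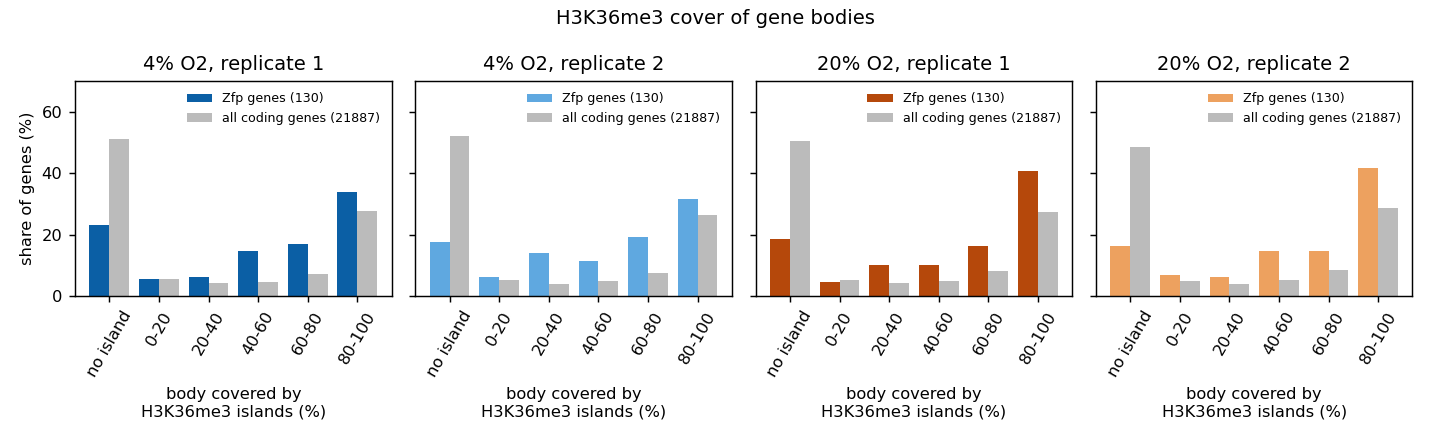
Share of genes (%, vertical axis) by the part of the gene body covered by H3K36me3 islands (%, horizontal axis), 1 panel per library. Coloured bars are the 130 zinc finger genes and grey bars all 21887 protein-coding genes; in each panel the zinc finger genes have fewer bodies without an island, 30 and 23 at 4% oxygen, against 24 and 21 at 20%.

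H3K36me3 lay toward the 3′ end, as is known for this mark, and H3K4me3 toward the 5′ end. Among 92 genes of the set with a known strand and mean cover of at least 25%, the 3′ part of the body, from its midpoint on, was covered more than the 5′ part in 82 (89.1%), against 86.9% of 7874 such genes overall. The median difference between the parts was 19.2 percentage points, against 14.5 over all genes. H3K4me3 covered more of the 5′ part in 89 of the 92.

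The level of H3K36me3 is given as scaled reads per kb, that is, reads per kb of body in a library scaled to 1000000 reads in islands, where island reads were shared out to genes by overlap. Among the 99 genes with enough cover to be tested, the median level was 1.76 and 1.64 at 4% oxygen, against 2.01 and 2.03 at 20%. The 9667 genes tested overall had medians of 2.41 and 2.26 at 4% oxygen, against 2.28 and 2.33 at 20%. In the set both 4% medians lie under both 20% medians, while over all genes they overlap. Tested genes of the set had a median mean cover of 76.4%, against 85.8% over all tested genes.

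The highest levels belonged to Zfp131, Zfp748, Zfp87, Zfp58 and Zfp143. Zfp131 (chr13:119765186-119791477) had 6.44 and 4.68 scaled reads per kb at 4% oxygen, against 5.76 and 4.11 at 20%. Zfp748, in the chromosome 13 cluster, had 5.00 and 3.96 at 4% oxygen, against 4.80 and 4.30 at 20%. Zfp143 (chr7:110061689-110095396) had 3.79 and 3.79 at 4% oxygen, against 3.70 and 3.48 at 20%. In Zfp131 and Zfp748 the replicates differed more than the oxygen levels did, and the groups overlapped; in Zfp143 both 4% values were higher, with a log2 ratio of 4% to 20% of 0.08 (standard error 0.10) and an adjusted p of 0.977 in edgeR's quasi-likelihood test. Zfp58, whose promoter carries the motif shown above, had 3.78 and 3.51 at 4% oxygen, against 4.23 and 3.75 at 20%. The lowest levels above 0 belonged to Zfp78, Zfp459 and Zfp296. Zfp78 had an island in 1 library only, with 0.227 in 4% replicate 2.

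**Figure D2:**
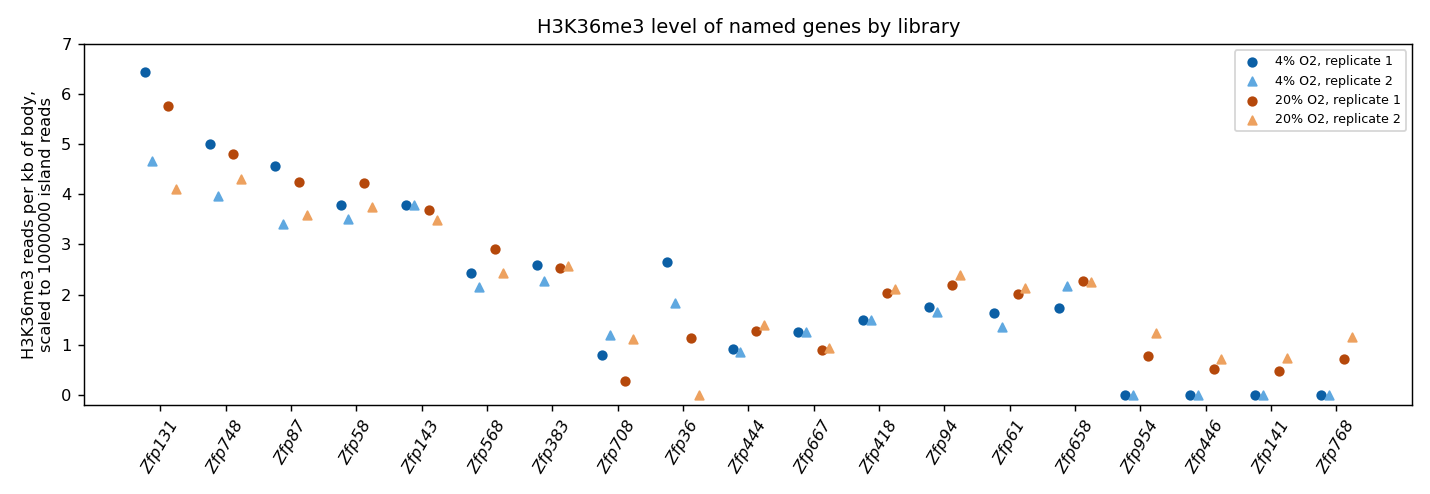
H3K36me3 level in scaled reads per kb of gene body (vertical axis) for named zinc finger genes (horizontal axis), 1 point per library, with blue for 4% oxygen and orange for 20%. The first 5 genes have the highest levels of the set, and the last 4 lie at 0 in both 4% libraries and above 0 in both 20% libraries.

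The question the experiment puts to these genes is whether 3 days at 4% oxygen altered their marks. For H3K36me3 no single gene of the set passed edgeR's test, while most of the set's ratios lay below 0. Counts over all 9667 genes were fitted with edgeR's quasi-likelihood test and p-values adjusted by Benjamini-Hochberg over all of them. It called 0 genes of the set higher and 0 lower at adjusted p under 0.05, as it did over all genes (0.0% in either direction). The lowest adjusted p in the set was 0.622. At an unadjusted p under 0.05 it had 14 genes of the set lower, 14.1% of those tested against 3.43% of all genes tested, and 1 higher, against 2.33%. DESeq2 called 2 genes of the set lower, Zfp954 and Zfp444, and 0 higher, beside 2.89% lower and 1.82% higher over all genes. Zfp954 had no island over its body in either 4% library, so its call reflects where islands were called. Its unadjusted p was under 0.05 for 25 genes of the set that were lower and 1 that was higher, beside 7.0% and 5.47% of all genes.

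The median log2 ratio of 4% to 20% was -0.15 over the 99 tested genes of the set, against 0.00 over all tested genes. It was below 0 in 73 of the 99 (73.7%), against 49.4% of all genes. Taken by replicate, the median of the set was -0.11 in replicate 1 and -0.17 in replicate 2, relative to the median of all genes. Ratios were below that median in both replicates in 57 genes (57.6%), against 29.9% of all genes, and above it in both in 12 (12.1%), against 29.9%. Libraries were paired by replicate number alone, so the replicates are not known to be matched repeats. The median was -0.15 on each of the 2 chromosomes. Genes inside clusters had a median of -0.20 (72 genes) and those outside -0.04 (27 genes). Zfp genes on other chromosomes had a median of -0.03 (195 genes). These are descriptions of lists whose genes share islands and flanks, and the differences between lists were not tested.

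**Figure D3:**
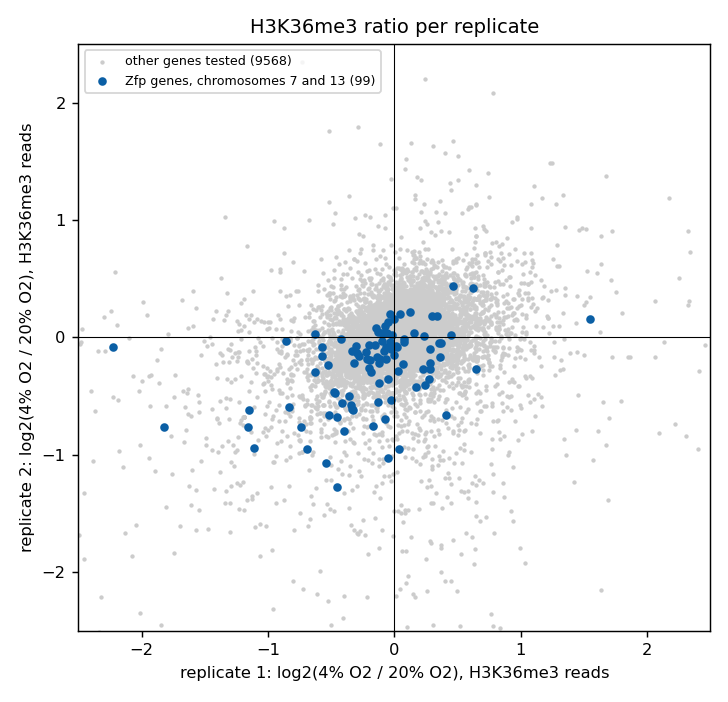
Log2 ratio of H3K36me3 reads, 4% over 20% oxygen, in replicate 1 (horizontal axis) and replicate 2 (vertical axis) for genes tested, each centred on the median of all genes. Blue points are zinc finger genes of chromosomes 7 and 13 (99) and grey points the other genes. Of the 99, 57 belong at the lower left and 12 at the upper right. These counts include genes such as Zfp954 and Zfp36 among the 5 that fall outside the axis limits of 2.5 and are not drawn.

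The median ratio of the set did not follow body cover in one direction. In bodies with mean cover of 25% to 50% the median log2 ratio was -0.19 over 21 genes of the set, against -0.17 over 1392 genes overall. In bodies with mean cover of 50% to 75% the median log2 ratio was -0.33 over 27 genes of the set, against -0.05 over 1943 genes overall. In bodies covered 75% to 90% it was -0.16 over 28 genes, against 0.03 over 2434. In bodies covered 90% or more it was -0.03 over 23 genes, against 0.02 over 3898. When reads were counted per covered length of the body, the median of the set became -0.08 over 94 genes, against 0.02 over all genes. In bodies covered at least 90% in every library it was -0.04 over 17 genes, against 0.00 over 2968 genes overall. The part of island extent in the read ratio, beyond these values, was not tested.

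The same comparison was made for the extent of islands. Over the body and 10 kb flanks, both 4% libraries lay below both 20% libraries in 42 of the 119 genes of the set with any cover (35.3%), against 21.0% of all genes with cover. Both lay above in 7 (5.88%), against 9.85%. The median difference, 4% minus 20%, was -3.89 percentage points, against -0.96 over all genes, and over the body alone -2.83 points, against 0.0 over all genes. Taken by replicate, the body difference was 0.0 points in replicate 1 and -3.35 in replicate 2, while that over the window was -2.99 and -3.19. Over the body both 4% libraries were below in 34 of 113 genes (30.1%), against 15.5%, and above in 14 (12.4%), against 12.2%. With 2 libraries against 2, the exact permutation test cannot give a p under 0.33 for one gene, so a gene whose groups do not overlap is described and not called.

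Single genes are given in 4 groups. In the first, islands over the body were called at 20% oxygen alone. In Zfp954, Zfp446, Zfp141 and Zfp768 islands covered at least 25% of the body in both 20% libraries and 0% in both 4% libraries. These are 4 of 130 genes, against 0.274% of all protein-coding genes, and 0 genes of the set showed the opposite, against 0.0503%. Zfp954 (chr7:7114683-7121476) had 0% and 0% of its body covered at 4% oxygen, against 51.8% and 76.5% at 20%. Zfp141 (chr7:42473386-42505778) had 0% and 0% at 4% oxygen, against 32.7% and 49.4% at 20%. Zfp768 (chr7:127342795-127345314) had 0% and 0% at 4% oxygen, against 47.9% and 55.8% at 20%. A value of 0 means that no island was called and is no measure of the reads there, so no fold is given. Zfp446, in a further cluster, had 0% and 0% at 4% oxygen, against 39.9% and 46.2% at 20%. The flanks can differ from the body: over its whole window Zfp954 had 11.2% and 13.4% under islands at 4% oxygen, against 15.7% and 19.4% at 20%. H3K4me3 lay at the ends of all 4 genes at both oxygen levels. In Zfp954 it covered 1409 and 1123 bases near the gene ends at 4% oxygen, against 1416 and 920 at 20%. Zfp954 met the 25% mean cover needed for the fits through its 20% libraries alone, and entered them with 0 reads at 4% oxygen. Its adjusted p, 6.3e-06 with DESeq2 and 0.622 with edgeR, therefore sets uncalled islands against called ones. It adds no support beyond the island calls by which the gene was picked.

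In the second, H3K36me3 was present at both levels and lower at 4% oxygen in each pair of libraries. Zfp444 (chr7:6172468-6193104) had 0.908 and 0.856 scaled reads per kb at 4% oxygen, against 1.27 and 1.39 at 20%, a log2 ratio of -0.59 (standard error 0.14, edgeR adjusted p 0.791, DESeq2 adjusted p 0.0102). Its ratio per covered length was -0.00, so the difference lay in the covered part of the body, 53.3% and 45.6% at 4% oxygen against 72.7% and 77.5% at 20%. Zfp418 (chr7:7171353-7183560) had 1.497 and 1.486 at 4% oxygen, against 2.02 and 2.12 at 20%, with a log2 ratio of -0.47 (standard error 0.14, edgeR adjusted p 0.829). Its body was covered over 79.95% and 86.5% at 4% oxygen, against 86.5% and 88.1% at 20%, so here the extent was close to equal and the reads were fewer. Zfp94 (chr7:24301704-24316698) had 1.74 and 1.65 at 4% oxygen, against 2.18 and 2.39 at 20%. Zfp61, whose record overlaps that of Zfp94, had 1.63 and 1.36 at 4% oxygen, against 2.01 and 2.14 at 20%. With reads per covered length and the replicate as a block, a fit chosen after seeing the data, edgeR called Zfp418, Zfp94, Zfp61 and Zfp658 lower (adjusted p 0.0144, 0.0484, 0.0209 and 0.0187), beside 2.75% of all genes tested there, and 0 higher, beside 4.95%. Its unadjusted p was under 0.05 for 19 genes of the set that were lower and 0 that were higher, beside 8.63% and 12.8% of all genes. Zfp658 had 1.73 and 2.17 at 4% oxygen, against 2.27 and 2.24 at 20%, and was the least separated of the 4.

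Zfp110, which encodes a factor that binds the neurotrophin receptor p75, lay with Zfp128 in a cluster that runs from Zfp329 to Zfp446. Zfp110 had 1.36 and 0.910 scaled reads per kb at 4% oxygen, against 2.15 and 1.80 at 20%, a log2 ratio of -0.81 (standard error 0.25, edgeR adjusted p 0.840). Zfp128, which has the motif at its promoter, had 1.27 and 1.19 at 4% oxygen, against 1.65 and 2.12 at 20% (log2 ratio -0.61, standard error 0.20, adjusted p 0.840). Zfp825 (chr13:74478378-74494012) had the mark over 33.1% and 29.2% of its window at 4% oxygen, against 45.5% and 47.1% at 20%. None of these passed the test in edgeR.

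In the third, the mark was higher at 4% oxygen over the window or the body. Zfp667 (chr7:6286195-6307883) had 1.26 and 1.25 scaled reads per kb at 4% oxygen, against 0.887 and 0.943 at 20%, a log2 ratio of 0.45 (standard error 0.14, edgeR adjusted p 0.833). It was the only gene of the set above 0 at an unadjusted p under 0.05, and its H3K27ac cover was higher too, as given below. Zfp773 had no island over its body in any library, and islands in its flanks covered 11.5% and 13.8% of its window at 4% oxygen, against 0% and 0% at 20%. Zfp28 had 41.9% and 46.1% of its window covered at 4% oxygen, against 37.7% and 38.9% at 20%, while its scaled reads per kb were 1.91 and 1.75 at 4% oxygen, against 2.02 and 2.03 at 20%. These are unlike measures, cover and reads. In Zfp28 the cover difference over the body was 0.0 points, and the log2 ratio of reads over the window was 0.02. With equal numbers of islands its cover difference over the window fell from 5.68 to 1.20 points, and that of Zfp773 from 12.7 to 5.75 points. Zfp646 had islands over 91.1% and 89.0% of its window at 4% oxygen, against 85.6% and 84.2% at 20%. Zfp36 (chr7:28376784-28379228) had 2.65 and 1.83 scaled reads per kb at 4% oxygen, against 1.13 and 0 at 20%, where replicate 2 had no island over the gene. Its body of 2.44 kb is the shortest of the set, and the log2 ratio of 1.96 had a standard error of 2.08.

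In the fourth, values overlapped between oxygen levels. Zfp568, a KRAB gene required in mouse development that silences a placental Igf2 transcript, had 2.43 and 2.15 scaled reads per kb at 4% oxygen, against 2.91 and 2.42 at 20% (log2 ratio -0.22, standard error 0.14, adjusted p 0.914). Zfp383, in the same cluster, had 2.59 and 2.26 at 4% oxygen, against 2.53 and 2.57 at 20%. Zfp708 had 0.804 and 1.20 at 4% oxygen, against 0.267 and 1.11 at 20%, so its libraries differed more within each oxygen level than between them.

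The clusters differed from one another in level. The chromosome 7 cluster from Zfp84 to Zfp146 was covered throughout: all 15 genes had mean cover of at least 25%, and the median body cover was 81.2% and 81.2% at 4% oxygen, against 80.9% and 81.1% at 20%. The 4 genes from Zfp141 to Zfp975 lay at the other end, with medians of 0% in all 4 libraries and Zfp141 as the most covered. The 4 genes from Zfp954 to Zfp772 (chr7:7114683-7209998) had medians of 23.4% and 19.5% at 4% oxygen, against 59.4% and 66.7% at 20%. The 5 genes from Zfp329 to Zfp446 had 68.2% and 55.6% at 4% oxygen, against 90.1% and 89.8% at 20%. The 6 genes from Zfp787 to Zfp28 had 46.2% and 37.2% at 4% oxygen, against 57.2% and 54.1% at 20%.

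In 3 clusters both 4% medians of body cover lay above both 20% medians: the cluster from Zfp84 to Zfp146, by under 1 percentage point, and 2 others. The 3 genes from Zfp658 to Zfp819 had medians of 89.965% and 89.8% at 4% oxygen, against 81.4% and 84.2% at 20%. The 6 genes from Zfp628 to Zfp580 had 16.4% and 29.3% at 4% oxygen, against 14.5% and 11.2% at 20%. Reads did not follow cover in each of these clusters. From Zfp84 to Zfp146 the median log2 ratio was -0.18, with 12 of 15 tested genes below 0. From Zfp658 to Zfp819 it was -0.15, with 2 of 2 tested genes below 0. The median level there was 1.73 and 2.17 scaled reads per kb at 4% oxygen, against 2.27 and 2.24 at 20%. From Zfp628 to Zfp580 the median ratio was 0.13 over 3 tested genes. In the clusters from Zfp180 to Zfp575 and from Zfp553 to Zfp629 the medians by library overlapped between oxygen levels. Genes of a cluster share flanks, so these medians are descriptions.

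The chromosome 13 cluster had 18 of 23 genes with mean cover of at least 25%. Its median level was 1.48 and 1.26 scaled reads per kb at 4% oxygen, against 1.89 and 1.99 at 20%, and 14 of the 18 tested genes had a log2 ratio below 0. Neighbouring genes differed widely: Zfp748, Zfp87 and Zfp58 were covered nearly from end to end in each library, while Zfp456 and Zfp493 had no H3K36me3 island in any. Few islands joined neighbours. In the whole set, 3 and 4 H3K36me3 islands at 4% oxygen, and 5 and 4 at 20%, lay over more than 1 gene of the set, and none lay over more than 2.

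**Figure D4:**
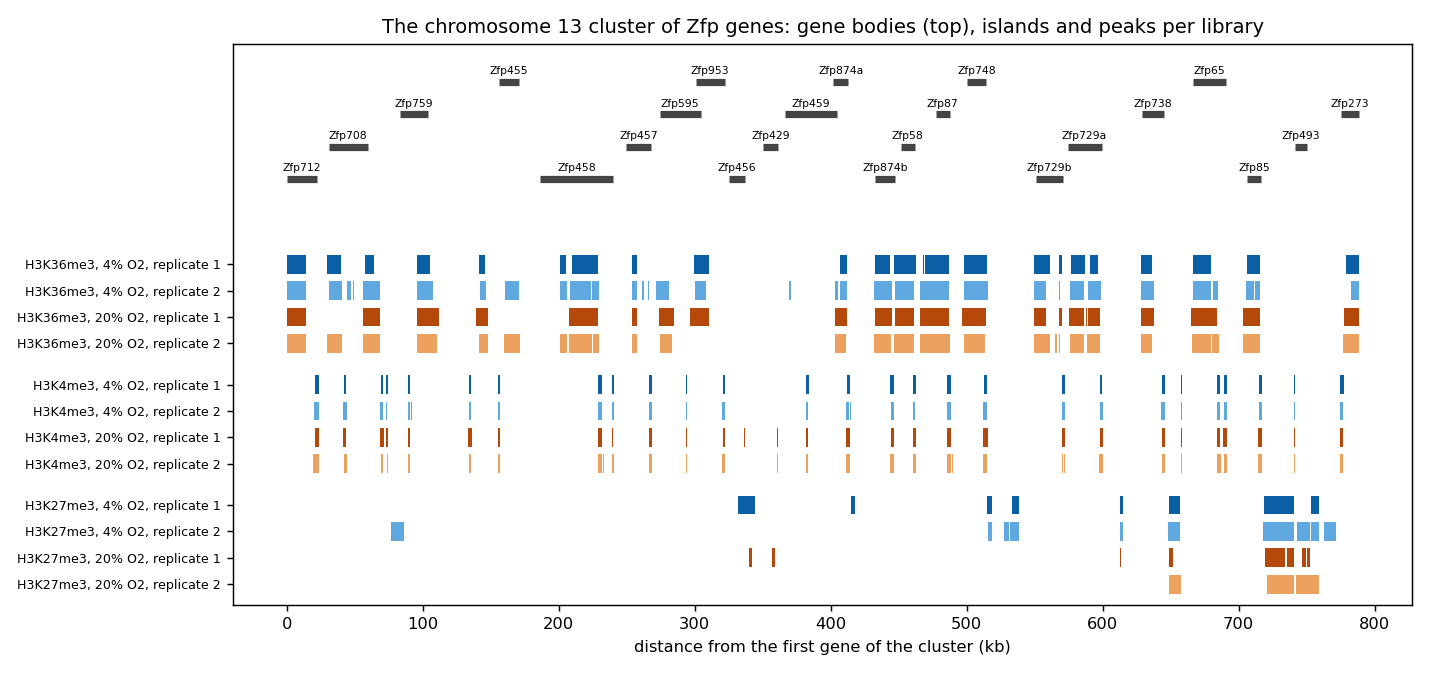
Map of the chromosome 13 cluster, with distance from its first gene in kb on the horizontal axis, gene bodies in grey at the top and, below, H3K36me3 islands, H3K4me3 peaks and H3K27me3 islands in each library. H3K36me3 islands stop and start again between most neighbouring genes, and H3K27me3 islands are few, the widest of them around Zfp493 at the right end; marks under 0.6 kb are drawn 0.6 kb wide.

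H3K27me3 was scarce. Islands touched the body of 8 of 130 genes in any library (6.15%), against 22.6% of all protein-coding genes, and the window of 31 (23.8%), against 35.6%. Both 4% libraries lay above both 20% libraries in 9 of these 31 windows (29.0%), against 22.9% of all genes with cover, and below in 1 (3.23%), against 5.14%. Zfp541, known for its role in male meiosis, had 68.7% and 76.8% of its body covered at 4% oxygen, against 37.4% and 50.7% at 20%. Zfp536, known to restrain neuronal differentiation, had 18.9% and 20.0% of its body covered at 4% oxygen, against 23.5% and 56.8% at 20%. Those 2 genes lay outside clusters and had no H3K36me3 island in any library. Zfp109 had 51.1% and 57.6% at 4% oxygen, against 41.6% and 55.2% at 20%, together with H3K36me3 over 30.2% and 24.4% of the body at 4% oxygen, against 32.6% and 35.1% at 20%. Zfp493 was covered over 0% and 83.9% of its body at 4% oxygen, against 30.7% and 90.3% at 20%, so its libraries followed the replicate and not the oxygen level. The remaining 4 genes, Zfp688, Zfp759, Zfp456 and Zfp429, had an island over the body in 1 library each.

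For H3K27ac the 4% libraries lay above the 20% libraries more often than below them. Both 4% libraries lay above both 20% libraries in 43 of 119 genes of the set with cover (36.1%), against 23.8% of all genes with cover, and below in 7 (5.88%), against 7.64%. The median difference was 0.41 percentage points, against 0.37 over all genes, so that its size was close to that over all genes. Within replicates it was 0.06 points in replicate 1 and 0.87 in replicate 2, and without 4% replicate 2 it was 0.03. Zfp941 had 7.74% and 7.55% of its window covered at 4% oxygen, against 4.44% and 5.07% at 20%. Zfp667 had 6.21% and 4.41% at 4% oxygen, against 2.94% and 2.72% at 20%, and Zfp65 had 5.80% and 6.07% at 4% oxygen, against 3.45% and 3.76% at 20%. Of the genes with lower cover, Zfp82 had 2.84% and 3.62% at 4% oxygen, against 4.51% and 4.46% at 20%, and Zfp780b and Zfp273 followed with smaller differences.

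H3K4me1 lay lower at 4% oxygen in the set and in all genes alike. Both 4% libraries lay below both 20% libraries in 50 of 90 genes of the set with cover (55.6%), against 62.4% of all genes with cover, and above in 0, against 0.284%. The median difference was -1.51 percentage points, against -2.65 over all genes, and without 20% replicate 1 it was -0.67. Zfp36 had 6.59% and 4.75% of its window covered at 4% oxygen, against 35.8% and 17.9% at 20%. Zfp575 had 1.88% and 0% at 4% oxygen, against 12.1% and 8.13% at 20%, and Zfp689 had 0% and 2.41% at 4% oxygen, against 10.4% and 8.67% at 20%. In all 3 the groups did not overlap, while in Zfp36 the 20% libraries also lay far from each other.

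H3K4me3 gave no steady direction. Both 4% libraries lay below both 20% libraries in 23 of 127 genes of the set with cover (18.1%), against 15.9% of all genes, and above in 6 (4.72%), against 4.41%. The median difference was -0.39 points. It was -1.23 in replicate 1 and 0.35 in replicate 2, and without 20% replicate 1 it was 0.18. Zfp94, which also had less H3K36me3, had 14.5% and 14.3% of its window under H3K4me3 at 4% oxygen, against 18.5% and 16.7% at 20%. Zfp128, with the motif at its promoter, had 11.8% and 12.4% at 4% oxygen, against 14.03% and 13.5% at 20%. Zfp235 had 7.42% and 7.41% at 4% oxygen, against 8.87% and 8.51% at 20%. Zfp628, Zfp444 and Zfp710 were the genes with the widest gap between groups toward higher cover. In Zfp710 the difference of 1.03 points was 0.60 with equal numbers of peaks and 0.24 with a peak score of at least 5. Zfp628 had 24.6% and 28.0% at 4% oxygen, against 23.8% and 22.8% at 20%. Zfp444 had 9.88% and 9.90% at 4% oxygen, against 9.31% and 9.09% at 20%, and less H3K36me3 at the same time.

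**Figure D5:**
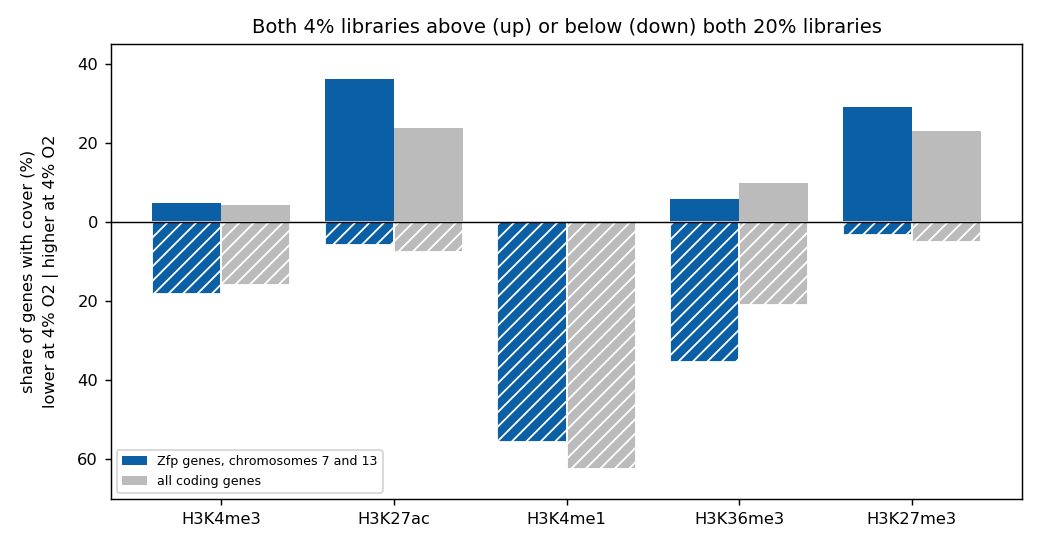
Share of genes with cover (%, vertical axis) in which both 4% libraries lie above both 20% libraries (bars up, plain) or below both (bars down, hatched), for each mark. Blue bars are the zinc finger genes of chromosomes 7 and 13 and grey bars all protein-coding genes. Blue exceeds grey most for lower H3K36me3 (35.3% against 21.0%) and higher H3K27ac (36.1% against 23.8%). It exceeds grey by less for higher H3K27me3 (29.0% against 22.9%), lower H3K4me3 (18.1% against 15.9%) and higher H3K4me3 (4.72% against 4.41%).

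Taken by gene, the marks sorted most of the set into 1 state. A gene was counted as active where H3K4me3 lay within 1 kb of a gene end and H3K36me3 covered at least 25% of the body, and as Polycomb where H3K27me3 covered at least 25% of the window. Genes that met both rules, at most 2 of the set in any library, were counted apart. On this rule 82 and 86 of 130 genes were active at 4% oxygen, against 90 and 86 at 20%, with 63.1% and 66.2% at 4% oxygen, against 69.2% and 66.2% at 20%. Over all protein-coding genes the active shares were 37.5% and 37.3% at 4% oxygen, against 39.2% and 40.5% at 20%. Among Zfp genes on other chromosomes they were 61.8% and 62.2% at 4% oxygen, against 65.5% and 65.2% at 20%. The Polycomb state held 6 and 4 genes of the set at 4% oxygen, against 3 and 4 at 20%. The state was the same in all 4 libraries in 105 genes, of which 75 were active and 28 were in neither state. The outer ends of Zfp708 lacked H3K4me3, which put it in neither state although its internal start site, shown above, was fully marked. Zfp759, Zfp61, Zfp59 and Zfp790, among others, were also in neither state in all 4 libraries. Yet their start sites were overlapped by H3K4me3 in all 4 libraries, and they had enough H3K36me3 cover to be tested. The rule reads gene ends alone, so neither state does not mean that a gene was inactive.

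The corepressor machinery that KRAB zinc finger proteins use was read from the same fit. Of a list of 30 genes for TRIM28, its partners, heterochromatin proteins and H3K36 methyltransferases, 29 could be tested for H3K36me3 reads. By edgeR 0 were called in either direction, with 0 at an unadjusted p under 0.05 and 0 called by DESeq2, and 13 had a log2 ratio below 0. The edgeR fit per covered length with the replicate block, chosen after seeing the data, called 1 as lower, beside 2.75% lower and 4.95% higher over all genes tested there. This was Pphln1, a subunit of the HUSH silencing complex (log2 ratio -0.24, adjusted p 0.0435). In the fit without block the median log2 ratio of the list was 0.01, against 0.00 over all genes. Trim28, which itself lies on chromosome 7, had 3.12 and 2.56 scaled reads per kb at 4% oxygen, against 2.98 and 2.60 at 20% (log2 ratio 0.02, standard error 0.19). Setdb1 had 3.89 and 3.72 at 4% oxygen, against 4.10 and 3.91 at 20%, with a log2 ratio of -0.07 (standard error 0.09). Setd2, the main enzyme of H3K36 trimethylation, had 5.38 and 5.01 at 4% oxygen, against 5.33 and 4.39 at 20%, with a log2 ratio of 0.10 (standard error 0.14).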

How the data were processed

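The submitters' processing notes name BWA, Picard, MACS2 and SICER and the build mm10, without versions in the sources used here. The authors' MACS2 peak score is a −log10 value per the file layout, used only for an alternative minimum of 5, and the deposited SICER islands carry a count of reads per island. For 1 library of each pair the deposited intervals stood under the other library. Names, scores and positions of the summits matched in 100% of entries, and intervals were assigned accordingly.

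Gene records, start sites and promoter sequences are RefSeq, GRCm38.p6. Covered shares were computed per library, and island counts shared out by overlap, rounded and fitted with edgeR 4.0.16 (TMM) over all genes with mean body cover of at least 25%. Standard errors were taken from the log2 ratio and its F statistic, and log2 ratios per replicate used a prior count of 2. DESeq2 1.42.0, other windows, peak numbers and filters, and leaving out each library, were alternatives. Named genes followed a rule: the highest and lowest H3K36me3 levels, the extremes per mark, direction and cluster, the most H3K27me3, and 5 genes with known roles; Zfp446, Zfp110 and the genes named for other fits, motifs or small counts were added with their values known. All members, lists and rules were chosen with earlier results of these data known. The noradrenergic marker list is not reported here in full.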

Additional observations from a re-analysis of the deposited data

How the results depend on the processing

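The replicate numbers pair samples by number alone, since the correlation of replicate deviations between oxygen levels was 0.093 over 9667 genes. With the replicate as a block, edgeR called 0 genes of the set in either direction, as without it. Lower calls in the set numbered 2 with DESeq2, 4 with reads per covered length and the replicate block (chosen after seeing the data), and 0 to 1 with 1 library left out. The single call came without 4% replicate 1, where 311 genes overall were lower. Higher calls in the set were 0 in each of these edgeR and DESeq2 fits. Over all genes edgeR called 0, against 176 higher and 279 lower with DESeq2, and 445 higher and 247 lower with reads per covered length and the block, and 142 higher and 131 lower in fully covered bodies with the block. The median log2 ratio of the set, -0.15, was -0.193 with no filter on low counts, -0.076 per covered length, -0.074 per covered length with the block, and -0.036 in fully covered bodies with or without the block. Leaving out a library gave -0.17 to -0.11. The median H3K36me3 cover difference, -3.89 points, was -3.27 with equal numbers of islands, -2.83 over the body alone, -2.79 with 5 kb flanks, and -3.75 to -3.02 with a library left out. For H3K27me3 the median of 4.81 points was 6.74 over the body alone. The H3K4me3 median of -0.39 points ranged from -0.90 to 0.18 with a library left out, and the reversal came without 20% replicate 1; the cause was not tested. H3K4me1 was -0.67 without 20% replicate 1, and H3K27ac 0.03 without 4% replicate 2. The other alternatives kept the direction of each median. The counts that follow cover single genes named by the rule, and leave out Zfp954, Zfp61 and Zfp658. Zfp954 had an adjusted p under 0.05 with DESeq2, and Zfp61 and Zfp658 per covered length with the block. Of the alternative values of genes named by the rule, 3 log2 ratios reached an adjusted p under 0.05, which they had not in the main fit. A further 40 values, all cover differences, moved by more than the standard deviation of the 2 replicate differences. The other 461 did neither, but log2 ratios were judged by the adjusted p alone, whatever their size or sign. That of Zfp444 went from -0.59 to 0.00 per covered length, and that of Zfp628 from 0.26 to -0.16 over the window. The depth of peak libraries is unknown.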
